A study of Mus musculus with 2 samples.

Results

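Cd3e, Cd3d and Cd3g, which encode the ε, δ and γ chains of CD3, and Trac, Trbc1 and Trbc2, the constant genes of the αβ T cell receptor, were followed through the immune cells of mouse liver. They were chosen by name, as 6 of the 13528 genes of the filtered count table, together with the CD3 and TCRb antibodies, 2 of 49 oligonucleotide-tagged antibodies counted in the same cells. CD45+ cells had been isolated from livers of C57BL/6 mice, for which the labels give an age of 10 weeks and the methods of the study a younger one, and were captured in 2 libraries, each of which pooled 2 genotypes. The first held dnTGFβRII (TG) mice, which express a human type II TGF-β receptor with dominant negative action from the CD4 promoter of the mouse, together with IFN-γ ARE-Del-/- mice. The second held P40-/-IL-2Ra-/- mice together with wild type (WT) mice. The study used TG mice as a model of primary biliary cholangitis, an autoimmune disease of the small bile ducts, and the comparison of TG with WT cells asks how hepatic immune cells differ in it. The deposited cell table names 4647 TG and 7282 WT cells, of which 2131 and 4171 carry the name of a T cell class. With 1 library for each genotype no test between genotypes was possible, and the part of genotype and that of capture library cannot be told apart. Intervals are given at 95% and cover counting error only.

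The αβ receptor recognises peptide on major histocompatibility molecules but has almost no cytoplasmic part. It reaches the surface and signals only in a complex with CD3 γε and δε dimers and a ζ dimer, the product of Cd247, and the cytoplasmic motifs of these chains are phosphorylated by Lck and then bind Zap70. γδ T cells join another receptor to CD3 chains, in the mouse mostly γε dimers, whereas NK cells, B cells and myeloid cells build no rearranged T cell receptor. The liver is rich in NKT cells, αβ T cells that share surface receptors with NK cells and recognise lipid on CD1d.

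Total counts were 18498477 molecules (UMIs) over the TG cells and 22216379 over the WT cells, with medians of 3298 and 2653.5 UMIs per cell. The cells of both libraries shared 36 barcodes. UMIs of another lineage lay more often in TG than in WT T cells: 37.1% of TG and 7.05% of WT T cells held at least 2 UMIs of 10 B cell and myeloid markers, and this ran through every class, from 30% to 42.9% in TG and from 4.64% to 12.5% in WT. Such shares rise with depth, which was higher in TG. Summed over a class, the 6 myeloid markers stood at 292 to 444 CPM in TG and 89.1 to 151 CPM in WT, and the 4 B cell markers at 80.4 to 178 CPM in TG and 29.1 to 171 CPM in WT. In γδ T cells the B cell markers were the lower in TG, at 80.4 CPM against 171 CPM. A doublet caller marked 0.839% of TG and 3.27% of WT cells. The part of these cells in the differences below was not tested beyond the values given without them.

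The 3 CD3 genes lie side by side on chromosome 9 of GRCm38, within 40056 bases. Cd3g (44969572 to 44980431, minus strand, 7 exons) and Cd3d (44981786 to 44987339, plus strand, 5 exons) point away from each other, with start sites 1355 bases apart, and Cd3e follows (44998740 to 45009627, minus strand, 8 exons). Promoter sequence is shown because these neighbours differed in how they followed the cell types. RefSeq (GRCm38.p6) gave a promoter for these 3 of the 6 members, and the 250 bases before each start are printed 5′ to 3′ on the gene's own strand, for Cd3g from chr9:44980432-44980681, for Cd3d from chr9:44981536-44981785 and for Cd3e from chr9:45009612-45009861. The gene positions are those of GENCODE, and the RefSeq start of Cd3e lies further in, so the last 16 bases of its window, with most of the second ETS match, fall inside the gene as given above. Capitals mark letters of 4 motifs searched on both strands: the E box CACCTG, the ETS core AGGAAG, the GATA motif AGATAA and the RUNX motif TGTGGT.
Cd3g: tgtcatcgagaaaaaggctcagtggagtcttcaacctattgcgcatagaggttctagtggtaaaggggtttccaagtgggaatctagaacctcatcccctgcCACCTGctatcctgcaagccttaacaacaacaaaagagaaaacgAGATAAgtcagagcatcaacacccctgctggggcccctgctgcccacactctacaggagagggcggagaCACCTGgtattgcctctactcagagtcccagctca
Cd3d: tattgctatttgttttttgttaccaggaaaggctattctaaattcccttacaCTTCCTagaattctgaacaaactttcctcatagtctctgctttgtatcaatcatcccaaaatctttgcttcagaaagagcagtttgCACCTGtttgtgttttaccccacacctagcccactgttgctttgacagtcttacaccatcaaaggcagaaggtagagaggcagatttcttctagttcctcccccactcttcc
Cd3e: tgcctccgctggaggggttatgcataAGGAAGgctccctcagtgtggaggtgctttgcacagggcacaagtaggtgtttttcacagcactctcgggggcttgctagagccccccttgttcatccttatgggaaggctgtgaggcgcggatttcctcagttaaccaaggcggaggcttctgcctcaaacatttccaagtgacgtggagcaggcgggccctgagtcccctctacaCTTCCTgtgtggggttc
The E box was found 2 times before Cd3g and 1 time before Cd3d and is present in 17.2% of 32851 mouse promoters of this length. The ETS letters occurred 1 time before Cd3d and 2 times before Cd3e, and in 29.5% of all promoters. The GATA letters occurred 1 time before Cd3g, against 9.99% of all promoters, and the RUNX letters in none of these 3 windows, against 14.0%. These matches describe letters only.

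Trac lies on chromosome 14 (54220521 to 54224206, plus strand), 77670 bases beyond the start of Trdc, the constant gene of the δ chain. Trbc1 (41538218 to 41539881) and Trbc2 (41546730 to 41548352) lie on the plus strand of chromosome 6, and a β chain uses the constant gene of whichever cluster its variable gene joined. Their coding sequences of 518 bases are near copies, with 495 bases (95.6%) equal. The last 150 coding bases are shown because 22 of the 23 differing bases, in capitals, lie there.
Trbc1: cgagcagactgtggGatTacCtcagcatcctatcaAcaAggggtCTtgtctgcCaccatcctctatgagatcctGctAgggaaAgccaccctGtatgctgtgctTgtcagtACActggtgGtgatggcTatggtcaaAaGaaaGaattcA
Trbc2: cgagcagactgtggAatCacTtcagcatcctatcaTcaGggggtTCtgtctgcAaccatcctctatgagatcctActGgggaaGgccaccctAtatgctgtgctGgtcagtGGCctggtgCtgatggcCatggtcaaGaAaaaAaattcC
Of all 50-base windows of the Trbc1 coding sequence, 60.3% occur unchanged in Trbc2, whereas none of the 170 windows after its last coding base occurs in the same part of Trbc2. The chemistry of the study captures transcripts by their poly(A) tail, and how the pipeline treated reads that match both genes is not given in the sources used here. The split between Trbc1 and Trbc2 below is therefore uncertain, while their sum is less so.

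The members were high in T cells and low in B cells and myeloid cells of both libraries, whereas cells named NK, described below, overlapped T cells in several of them. Levels are UMIs of a gene scaled to 1000000 UMIs of a cell set (CPM) and are compared for a given gene only. Cells had been clustered by the study, on genes that it does not list, and it named its T cell classes with CD3 protein. High levels in T cells are therefore a description of the names and not a finding. Cd3e ranged over the T cell clusters with at least 20 cells from 801 to 1747 CPM in TG (12 clusters) and from 623 to 1803 CPM in WT (14 clusters). In clusters named neither T nor NK, without cluster 17 (named mature B but rich in T cell transcripts), it ranged from 38.2 to 208 CPM in TG (9 clusters) and from 32.5 to 155 CPM in WT (7 clusters). The gap between T cells and other cells was narrower for Trac, at 514 to 2384 CPM in WT T cell clusters and 62.5 to 275 CPM in the other WT clusters. The 514 CPM is that of cluster 16, the γδ T cells. In TG, where γδ T cells were too few to enter, the Trac ranges were 817 to 1884 CPM and 38.6 to 249 CPM. Among cells named NK, Cd3e was at 1158 CPM in TG, above its level in TG CD4 and CD8αβ T cells, and Trbc1 at 519 CPM in WT, above its level in 4 of the 5 WT T cell classes.

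**Figure D1:**
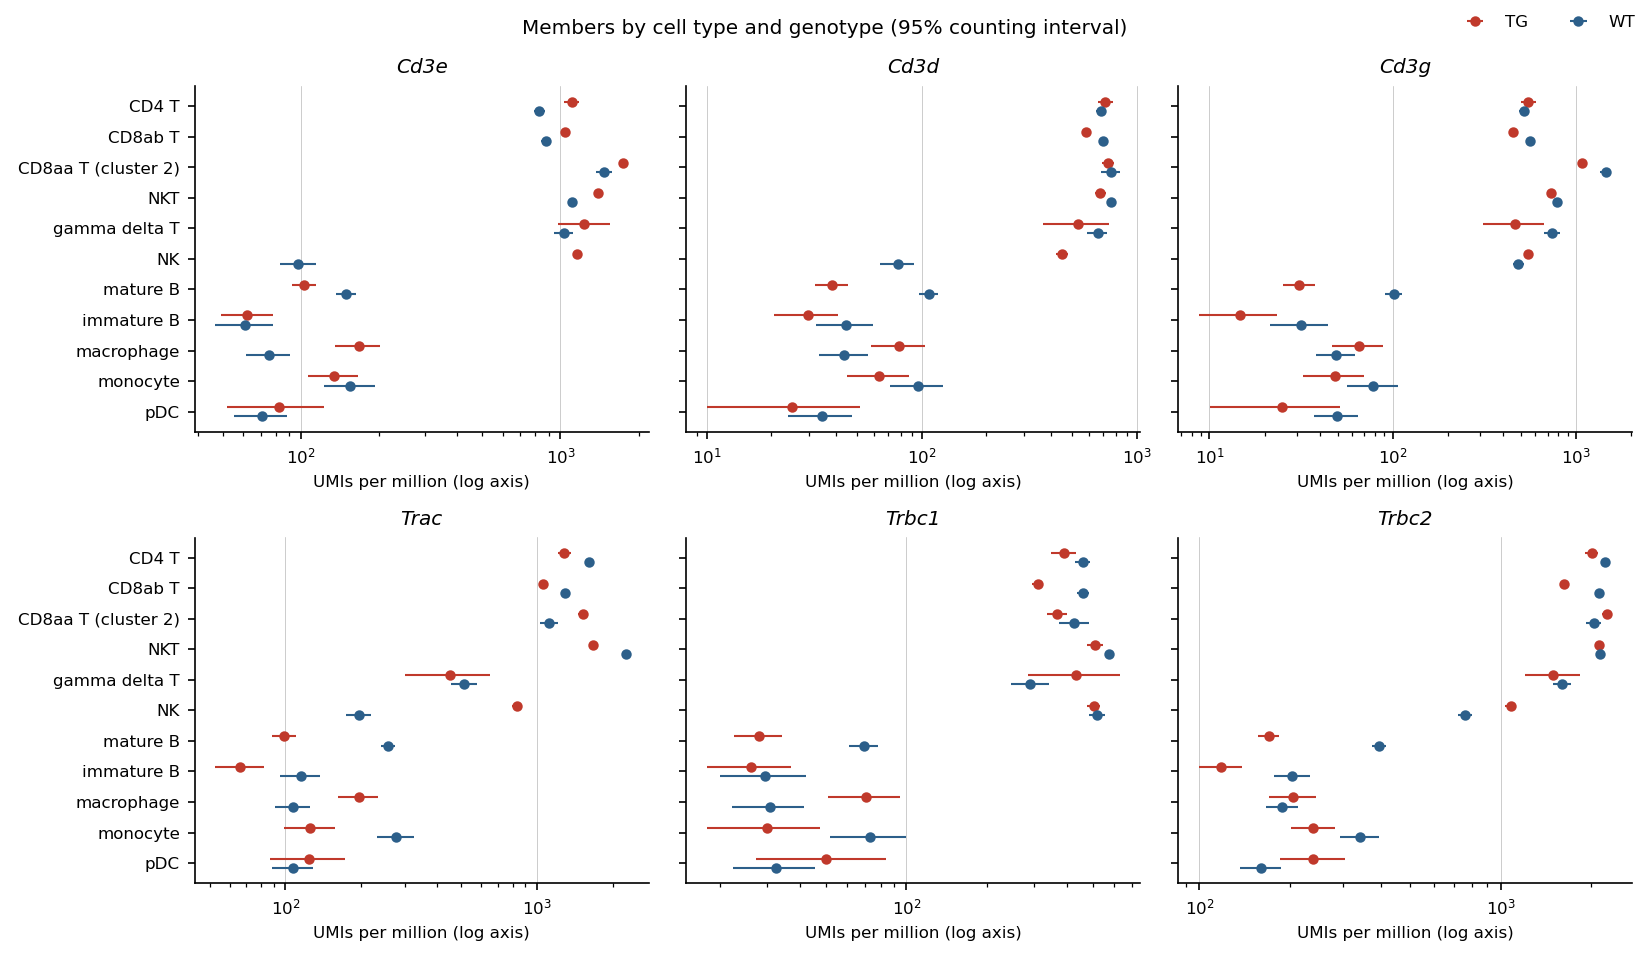
Level of each of the 6 genes (CPM, log axis) by cell type in TG and WT cells, with exact Poisson 95% intervals. All 6 genes are high in the T cell classes of both libraries, and Cd3e, Cd3d and Trac are high in TG but not in WT cells named NK.

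Among the T cell classes Cd3e was highest in the class called CD8αα T by the study, which is cluster 2 of the deposited clustering. Its level there was 1471 CPM (1371 to 1576) in WT and 1747 CPM (1677 to 1820) in TG. NKT cells followed with 1108 CPM (1083 to 1134) in WT and 1396 CPM (1341 to 1452) in TG, and γδ T cells with 1030 CPM (945 to 1120) in WT and 1237 CPM (977 to 1547) in TG. CD8αβ T cells (877 CPM, 844 to 911, in WT and 1042 CPM, 1015 to 1070, in TG) and CD4 T cells (829 CPM, 789 to 870, in WT and 1103 CPM, 1034 to 1176, in TG) were lowest. The order of CD4 and CD8αβ T cells was not the same in both libraries, and their intervals overlapped in each, as did those of NKT and γδ T cells.

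Among the classes, Cd3g, whose product pairs with CD3ε in the γε dimer, set cluster 2 apart more strongly. It stood at 1455 CPM (1355 to 1559) in WT and 1081 CPM (1026 to 1139) in TG cells of cluster 2. NKT cells held 786 CPM (764 to 807) in WT and 730 CPM (690 to 770) in TG, γδ T cells 738 CPM (667 to 815) and 466 CPM (312 to 669), CD8αβ T cells 562 and 456 CPM, and CD4 T cells 519 and 549 CPM. Cd3d, whose product forms the δε dimer, varied least: its levels lay between 657 and 758 CPM over the 5 WT classes and between 530 and 738 CPM over the 5 TG classes. Cluster 2 stood above the other classes in Cd3e and Cd3g. In Cd3d it was level with NKT cells in WT (756 and 758 CPM) and was highest in TG at 738 CPM (692 to 785), an interval that overlapped that of CD4 T cells (659 to 774) and that of NKT cells (639 to 716).

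Trac had another order. It was highest in NKT cells, with 2263 CPM (2227 to 2300) in WT and 1678 CPM (1618 to 1739) in TG, followed in WT by CD4 T cells with 1609 CPM (1553 to 1666), CD8αβ T cells with 1296 CPM (1256 to 1337), cluster 2 with 1118 CPM (1032 to 1210) and γδ T cells with 514 CPM (455 to 579). No neighbours in this WT order had overlapping intervals. In TG cluster 2 came second with 1519 CPM (1453 to 1587), ahead of CD4 T cells with 1287 CPM (1211 to 1366), CD8αβ T cells with 1058 CPM (1030 to 1086) and γδ T cells with 450 CPM (299 to 650). Trbc2 spanned a narrower range, from 1595 CPM in γδ T cells to 2219 CPM in CD4 T cells of WT, and from 1495 CPM in γδ T cells to 2247 CPM in cluster 2 of TG. Trbc1 lay between 292 and 574 CPM in WT and between 311 and 511 CPM in TG.

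**Figure D2:**
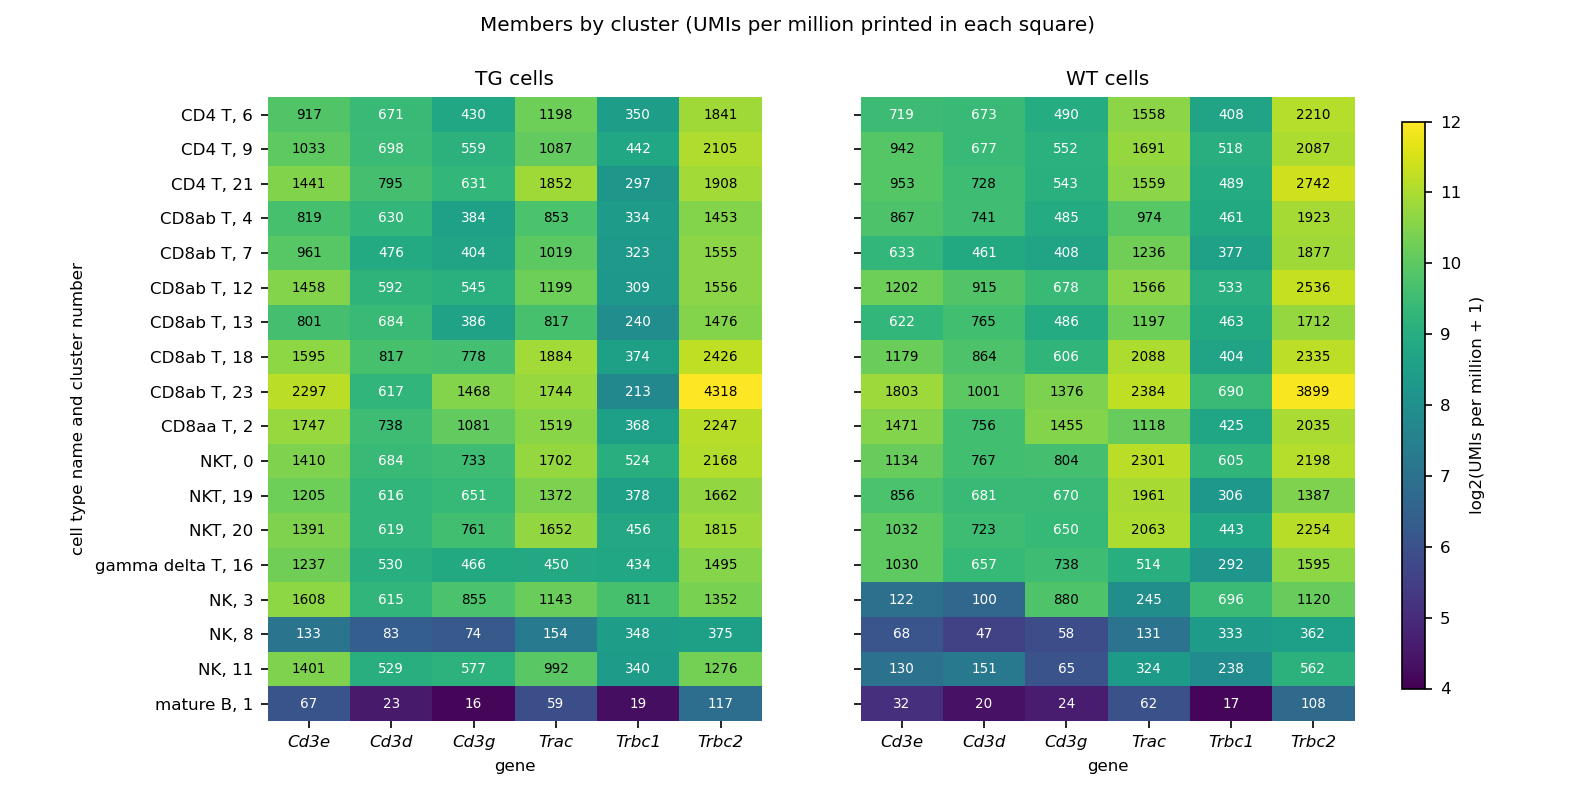
Heat map of the level of each gene (CPM, printed in the cells) by cluster, in TG and in WT. Cluster 23 has the highest WT values of Cd3e, Trac and Trbc2 (1803, 2384 and 3899 CPM), and clusters 7 and 13 the lowest WT Cd3e among T cell clusters.

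Single clusters spanned a wider range than the classes. Cluster 23, a minor CD8αβ cluster of 76 WT and 15 TG cells, had the highest Cd3e in both libraries, 1803 CPM (1650 to 1965) in WT and 2297 CPM (1885 to 2774) in TG, and the highest Trbc2, 3899 and 4318 CPM. Its Trac level was 2384 CPM (2208 to 2570) in WT and 1744 CPM (1387 to 2165) in TG. In WT its 3 CD3 genes summed to 4179 CPM, against 3682 CPM in cluster 2, and its Cd3d was at 1001 CPM against 756 CPM. High CD3 transcripts were thus not particular to cluster 2. At the other end, CD8αβ clusters 7 and 13 had Cd3e at 633 and 623 CPM in WT and at 961 and 801 CPM in TG. Over the 12 T cell clusters with at least 20 cells in each library, the log2 levels of Cd3e in TG followed those in WT with Pearson r of 0.87 and Spearman rho of 0.91. These were 0.86 and 0.79 for Cd3g, 0.69 and 0.67 for Trac, and 0.63 and 0.31 for Cd3d. They were 0.38 and 0.45 for Trbc2, and 0.19 and -0.02 for Trbc1. These values describe 12 clusters that share 2 libraries.

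Beyond counting error, Cd3e was higher in TG than in WT cells in CD4, CD8αβ, cluster 2 and NKT cells, and Trac was lower in TG in CD4, CD8αβ and NKT cells and higher in cluster 2. On the log2 scale the TG over WT ratio of Cd3e was 0.41 (0.30 to 0.53) in CD4 T cells, 0.25 (0.18 to 0.32) in CD8αβ T cells, 0.25 (0.13 to 0.37) in cluster 2, 0.33 (0.27 to 0.40) in NKT cells and 0.27 (-0.10 to 0.61) in γδ T cells, where only 17 TG cells were present against 192 WT cells. The ratio of Trac was -0.32 (-0.42 to -0.22) in CD4 T cells, -0.29 (-0.35 to -0.23) in CD8αβ T cells, 0.44 (0.31 to 0.57) in cluster 2, -0.43 (-0.49 to -0.38) in NKT cells and -0.19 (-0.81 to 0.37) in γδ T cells. By cluster, Cd3e was higher in TG in 11 of 12 clusters, with cluster 4 as the exception (-0.08), and Trac was lower in 10 of 12, with clusters 2 (0.44) and 21 (0.25) as exceptions. The sign of Cd3e held in 9 of 9 alternative calculations in CD4, CD8αβ, cluster 2 and NKT cells, and that of Trac in 9 of 9 in CD4, CD8αβ and NKT cells.

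**Figure D3:**
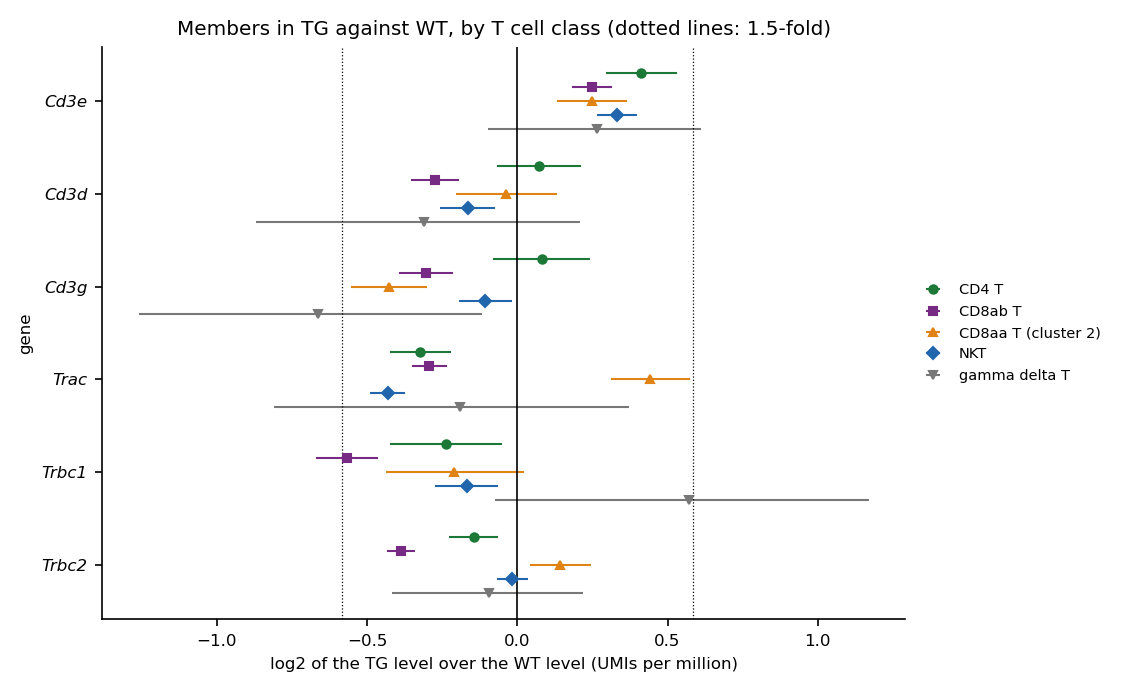
TG over WT ratio (log2) of each gene in the 5 T cell classes, with exact 95% intervals and dotted lines at 1.5-fold. Cd3e lies above 0 in every class and Trac below 0 in every class but cluster 2, though both intervals of γδ T cells cross 0. The point past a 1.5-fold line is Cd3g in γδ T cells (-0.66).

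The members were then counted beside all other genes. A gene was counted as past 1.5-fold where it had at least 10 UMIs in each profile. In CD4 T cells 0 of 6 members were past 1.5-fold in either direction, where 17.3% of 7619 genes were past it higher in TG and 6.13% lower, and the median of all genes was 0.11 on the log2 scale. In CD8αβ T cells 0 of 6 were past it, against 9.0% of 9774 genes higher and 8.03% lower. In cluster 2 the count was 0 of 6, against 7.44% of 6736 genes higher and 10.1% lower, and in NKT cells 0 of 6, against 9.86% of 9061 genes higher and 4.37% lower. In γδ T cells 0 of 6 members were higher, against 20.3% of 1254 genes, and 1 of 6 was lower, against 4.15%. With 10 UMIs over both profiles in place of 10 in each, these shares were 25.7% and 21.9% of 6804 genes. The member lower in TG was Cd3g, at 466 CPM from 29 UMIs in TG and 738 CPM in WT (log2 ratio -0.66). It was no longer past 1.5-fold without cells holding 2 or more B cell or myeloid UMIs (-0.55), and with cells thinned to 1000 UMIs it was at -2.04. With 6 members, counts of 0 or 1 lie near the shares over all genes and are no result about the members.

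The other members moved with the class. Trbc1 in CD8αβ T cells lay close to the 1.5-fold line, at 311 CPM in TG against 460 CPM in WT (log2 ratio -0.57, -0.67 to -0.46), and Trbc2 was at 1619 and 2116 CPM there (-0.39, -0.43 to -0.34). Trbc1 was past the line in 5 of 9 alternatives, which ranged from -0.72 to -0.49. Cd3d and Cd3g were lower in TG CD8αβ T cells as well (-0.27 and -0.30), so that the 3 CD3 genes summed to 2077 CPM in TG and 2139 CPM in WT, with a ratio of -0.04 (-0.09 to 0.00). In CD4 T cells the summed CD3 genes were higher in TG (0.22, 0.15 to 0.30) and the summed αβ constants lower (-0.22, -0.28 to -0.16). In cluster 2 Cd3g was lower in TG (-0.43, -0.55 to -0.30) while Cd3e was higher. Neither Cd3d nor Cd3g was higher in TG with an interval above 0 in any of the 5 classes.

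The antibodies gave surface protein in the same cells. TCRb antibody took 6.14% of antibody counts in TG and 8.23% in WT CD4 T cells, 5.76% and 6.65% in CD8αβ T cells, 3.11% and 1.18% in cluster 2, 3.09% and 2.38% in NKT cells, and 1.48% and 0.949% in γδ T cells. Mature B cells of cluster 1, which carry no such receptor, gave this antibody a centred log ratio with medians of 0.70 (TG) and 0.58 (WT), against 2.62 and 3.03 in CD4 T cells. On the log2 scale the TG over WT ratio of the antibody share was -0.42 in CD4 T cells, -0.21 in CD8αβ T cells, 0.37 in NKT cells and 1.40 in cluster 2. In γδ T cells it was 0.64, and -0.19 without cells holding 2 or more B cell or myeloid UMIs. For class sums the sign was that of Trac in CD4 T cells, CD8αβ T cells and cluster 2, and the opposite of Trac in NKT cells. In cluster 2 this did not hold without cells with a Trdc UMI, where Trac was at -0.07 and the antibody at 1.199. Of the CD4 clusters, TG cells had the lower share in cluster 6 (9.08% against 11.4%), which held 58 TG and 397 WT cells. They had the higher share in clusters 9 (5.30% against 4.89%) and 21 (5.38% against 3.23%). Of the CD8αβ clusters, the TG share was lower in 4 (6.68% against 8.47%) and 12 (6.03% against 6.06%) and higher in 7, 13, 18 and 23. Trac was lower in TG in clusters 7, 9, 13, 18 and 23, so the signs differed there.

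Counted per cell, 78.2% of TG and 54.4% of WT CD4 T cells and 79.0% and 46.0% of CD8αβ T cells lay above the 99th percentile of mature B cells of their library for TCRb. The shares were 21.5% and 0% in cluster 2, 46.0% and 1.52% in NKT cells and 35.3% and 1.56% in γδ T cells. Mature B cells include cluster 17, and the percentile, as a centred log ratio, was 1.99 in TG and 2.90 in WT over all of them and 1.38 and 1.56 in cluster 1 alone. With cluster 1 as the reference, a choice made after the data were seen, the shares were 95.8% and 93.1% in CD4 and 91.7% and 85.0% in CD8αβ T cells. On that reference cluster 2 lay at 69.3% in TG and 18.04% in WT, NKT cells at 82.7% and 57.8%, and γδ T cells at 52.9% (27.8 to 77.0) of 17 TG cells and 20.8% (15.3 to 27.3) of WT cells.

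The CD3 antibody was far weaker, with a median of 8 counts per cell in TG and 12 in WT CD4 T cells, against 2 in mature B cells of both libraries. Its share of antibody counts was 0.588% in TG and 0.768% in WT CD4 T cells, 0.397% and 0.483% in CD8αβ T cells, 0.438% and 0.328% in cluster 2, 0.346% and 0.328% in NKT cells and 0.489% and 0.611% in γδ T cells. Mature B cells stood at 0.107% and 0.141%. In the class sums of CD4 and CD8αβ T cells the TG share was the lower, at log2 ratios of -0.39 and -0.28, although Cd3e transcripts were higher there. By cluster the TG share was lower in CD4 cluster 6 (0.712% against 1.00%) and CD8αβ clusters 4 (0.363% against 0.546%), 7, 12 and 13. It was higher in CD4 clusters 9 (0.523% against 0.509%) and 21 (0.657% against 0.425%) and CD8αβ clusters 18 and 23. The ratios of cluster 2, NKT and γδ T cells turned sign in 1 alternative each.

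**Figure D4:**
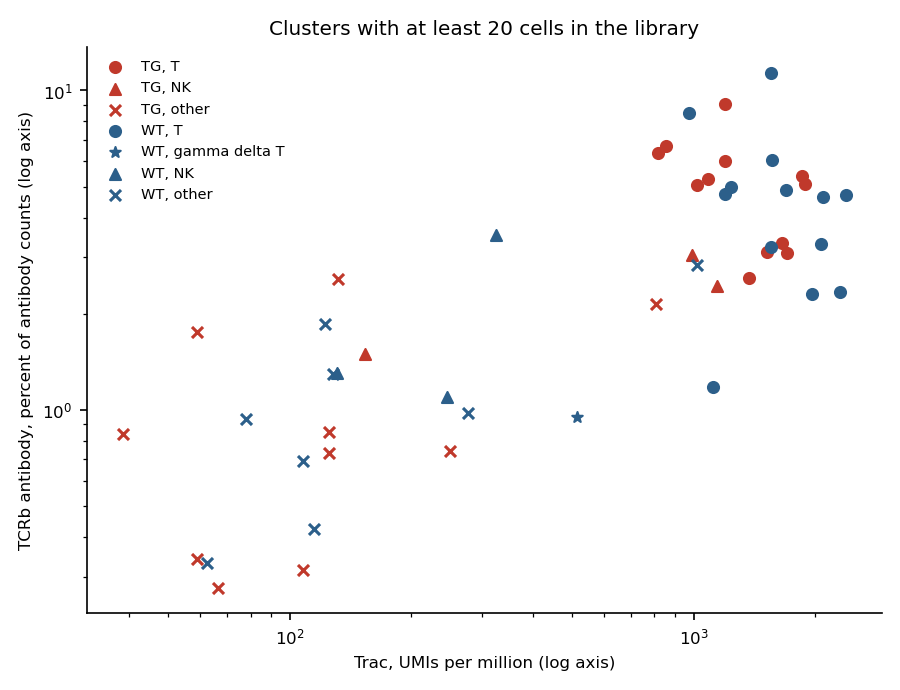
Trac level (CPM, log axis) against the TCRb antibody share of antibody counts (percent, log axis) for clusters with at least 20 cells, in TG and WT. Most T cell clusters sit high on both axes, but WT clusters 16 (0.949%) and 2 (1.18%) lie below WT macrophage clusters 15 (1.29%) and 27 (1.85%) in the antibody share. WT cluster 2 (1118 CPM, 1.18%) lies lower than TG cluster 2 (1519 CPM, 3.11%).

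WT γδ T cells had the lowest Trac of the 5 WT classes, at 514 CPM against 1118 to 2263 CPM, and Trbc2 was at 1595 CPM against 2035 to 2219 CPM, while Cd3e, at 1030 CPM, lay among the other classes. Trdc stood at 1393 CPM in WT and 1720 CPM in TG cells so named. In WT, 47.9% of γδ T cells held a Trac UMI and 88.0% a Trbc2 UMI. Of the 17 TG γδ T cells 88.2% held a Trac UMI and 9 held a Trdc UMI. The complete set of transcripts, defined as a Cd3e or Cd3d UMI with a Trac and a Trbc UMI in the same cell, was present in 76.5% of them. Where a WT γδ T cell held a Trdc UMI, Trac was at 280 CPM (226 to 342), and where it held none, at 928 CPM (797 to 1075). Trbc2 in the same cells was at 1302 CPM (1184 to 1430) and 2112 CPM (1911 to 2328), and Cd3e at 1049 CPM (943 to 1164) and 996 CPM (860 to 1148). The drop with Trdc was thus largest in Trac, smaller in Trbc2 and not seen in Cd3e.

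Trac was also lower in cells with a Trdc UMI in WT NKT and CD8αβ T cells. In WT NKT cells Trac stood at 475 CPM (388 to 575) in 81 cells with Trdc and at 2325 CPM (2288 to 2363) in 2151 cells without. In WT CD8αβ T cells it stood at 454 CPM (354 to 574) in 41 cells with Trdc and at 1340 CPM (1299 to 1383) in 778 without, and Cd3e was lower there too, at 649 CPM (528 to 789) and 889 CPM (855 to 924). In WT CD4 T cells, with 13 Trdc cells, both levels were alike, at 1531 CPM (1187 to 1944) and 1611 CPM (1554 to 1669). In TG the gap was smaller: Trac was at 736 CPM (647 to 834) with and 1080 CPM (1051 to 1109) without Trdc in CD8αβ T cells, and at 1239 CPM (978 to 1548) and 1694 CPM (1633 to 1757) in NKT cells. Over all T cell classes, 79.7% of TG and 40.7% of WT cells with a Trdc UMI also held a Trac UMI, and 46.6% and 24.3% after thinning to 1000 UMIs.

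Cluster 2 held many such cells in WT and few in TG. A Trdc UMI was found in 82 of 194 WT cells (42.3%) and in 20 of 410 TG cells (4.88%), and Trdc stood at 855 CPM in WT and 95.1 CPM in TG. Among the WT cells of the cluster, Trac was at 411 CPM (333 to 502) with Trdc and at 1640 CPM (1502 to 1787) without, whereas Cd3e (1452 and 1485 CPM) and Cd3g (1456 and 1453 CPM) were level. The complete set was found in 63.4% (56.2 to 70.2) of WT and 93.9% (91.1 to 96.0) of TG cells. Without cells holding Trdc the TG over WT ratio of Trac in cluster 2 went from 0.44 to -0.07 and that of the summed αβ constants from 0.21 to -0.15. The higher Trac of TG cluster 2 was therefore not present among its cells without Trdc, while Cd3e kept its sign.

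Trbc1 made up a minor and rather even share of Trbc UMIs in T cells, within the limit set by the near copies. It was 16.3% in TG and 17.1% in WT CD4 T cells, 16.1% and 17.9% in CD8αβ T cells, 14.1% and 17.3% in cluster 2, 19.4% and 21.1% in NKT cells, and 22.5% (15.4 to 31.0) and 15.5% (13.3 to 17.9) in γδ T cells. Among single cells with at least 5 Trbc UMIs, those with at least 90% from Trbc1 were rare, from 0% to 1.26% over the classes, those with at least 90% from Trbc2 made up 49.5% to 60.4%, and the rest, 38.4% to 50.5%, held both. Cells named NK had a higher Trbc1 share in clusters 3 and 8, 38.3% (35.9 to 40.8) in WT cluster 3 and 47.9% (43.5 to 52.4) in WT cluster 8, and 89.9% (83.9 to 94.3) of WT cluster 3 cells with 5 Trbc UMIs held both genes. In TG the share was 37.5% in cluster 3 and 48.2% in cluster 8, but 21.0% (19.0 to 23.2) in cluster 11, nearer to the T cell classes.

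Cells named NK differed between TG and WT in Cd3e, Cd3d and Trac in clusters 3 and 11, whereas Trbc UMIs were found in both libraries. The name covers clusters 3, 8 and 11, with 263, 153 and 343 TG cells and 306, 287 and 22 WT cells. In cluster 3 Cd3e was at 1608 CPM (1521 to 1699) in TG against 122 CPM (99.8 to 148) in WT, Cd3d at 615 CPM (561 to 672) and 99.5 CPM (79.3 to 123), and Trac at 1143 CPM (1070 to 1220) and 245 CPM (212 to 281). These are 13.1, 6.17 and 4.67 times higher levels in TG. Cd3g was the exception among CD3 genes, at 855 CPM (792 to 922) in TG against 880 CPM (818 to 946) in WT, and Trbc1 (811 and 696 CPM) and Trbc2 (1352 and 1120 CPM) differed little. Thus 3 of 6 members were past 1.5-fold higher in TG, against 9.34% of 7250 genes, and 0 of 6 lower, against 10.3%.

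The complete set was present in 78.3% (72.9 to 83.2) of TG and 9.15% (6.17 to 12.95) of WT cells of cluster 3, a difference of 69.2 percentage points (62.6 to 74.5). Mature B cells of cluster 1, which should lack these transcripts, gave 1.36% in TG and 0.677% in WT. Median depth was 2958 (TG) and 2652 (WT) UMIs per cell in cluster 3 and 2898 and 1978 in cluster 1. With every cell thinned to 1000 UMIs the shares in cluster 3 were 45.2% and 2.94%. A UMI of any CD3 gene was found in 95.1% of TG and 67.6% of WT cells of cluster 3 and in 30.1% and 21.3% of cells of cluster 8. For cluster 11 these shares were 99.4% and 22.7%, so at most 22.7% of its WT cells held Cd3g. In cluster 11 the set was present in 79.6% (74.9 to 83.7) of TG cells and in 2 of 22 WT cells. The shares in TG clusters 3 and 11 were below those of TG CD4 and CD8αβ T cells, at 89.5% (84.9 to 93.1) and 89.1% (87.0 to 91.0). After thinning cluster 11 was at 40.2% and these T cells at 47.9% and 41.3% (38.2 to 44.4). The interval of TG cluster 3, at 45.2% (39.1 to 51.5), then overlapped that of the CD8αβ T cells.

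Cluster 8 was different. Its complete set share was 11.8% (7.12 to 17.95) in TG and 3.83% (1.93 to 6.75) in WT, and 1.31% and 1.39% after thinning. Cd3e (133 and 67.5 CPM) and Cd3d (83.1 and 46.9 CPM) were past 1.5-fold higher in TG, so 2 of 6 members against 8.85% of 6364 genes, and 0 of 6 were lower, against 9.21%. Cd3g (74.3 and 57.9 CPM) and Trac (154 and 131 CPM) were low there in both libraries. Mature B cells of cluster 1, which should lack Cd3e, also had more of it in TG, at 67.3 CPM against 32.5 CPM in WT.

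**Figure D5:**
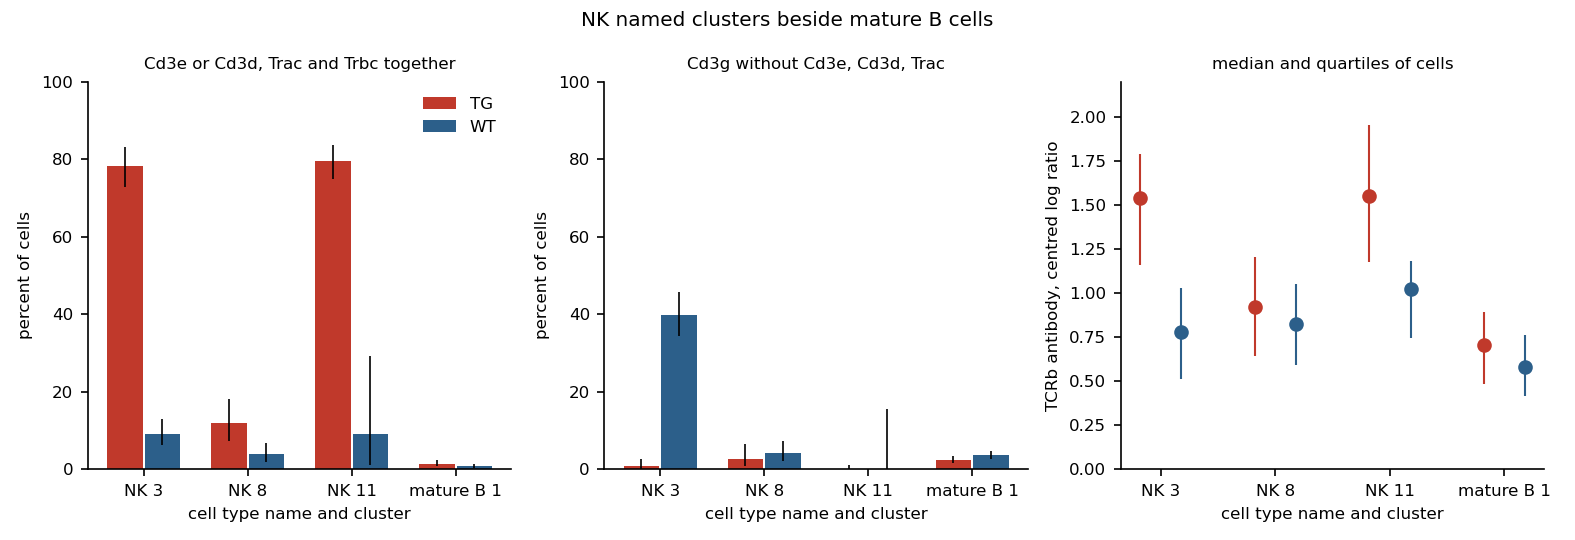
Clusters 3, 8 and 11, which the study named NK, and mature B cluster 1 in TG and WT. Panels give the percent of cells with the complete set, the percent with Cd3g but no Cd3e, Cd3d or Trac (both with Clopper-Pearson 95% intervals), and the TCRb antibody as centred log ratio (median and quartiles). TG clusters 3 and 11 stand high in the first and last panel, and WT cluster 3 in the middle panel.

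The TCRb antibody was higher in TG than in WT cells of cluster 3, whereas in cluster 11 the direction of its share turned on 2 of 22 WT cells. Its share of antibody counts was 2.43% (2.37 to 2.50) in TG against 1.10% (1.06 to 1.13) in WT for cluster 3, but 3.05% (2.99 to 3.12) against 3.54% (3.21 to 3.89) for cluster 11, with 22 WT cells. The median centred log ratio of the antibody was 1.54 in TG and 0.78 in WT cells of cluster 3, 1.55 and 1.02 in cluster 11, and 0.92 and 0.82 in cluster 8, beside 0.70 and 0.58 in mature B cells. Within TG cluster 3 it was 1.58 (quartiles 1.23 and 1.83) in 206 cells with the complete set and 1.27 (0.89 and 1.61) in 57 cells without. Ncr1, which encodes the NK cell receptor NKp46, was at 418 CPM in the former and 840 CPM in the latter, and 56.8% (49.7 to 63.7) of TG cells with the complete set held an Ncr1 UMI. Within TG cluster 11 the antibody median was 1.55 both in 273 cells with the complete set and in 70 without, and Ncr1 was at 405 and 443 CPM. Cd4 stood at 579 and 420 CPM in TG cells of cluster 3 with and without the set, against 20.4 CPM in WT cluster 3. None of the TG cells of cluster 3 with the complete set was called a doublet, whereas 39.3% of the 28 WT cells with it were. Cells with at least 2 B cell or myeloid UMIs made up 27.5% of TG and 6.99% of WT cells named NK. For the TCRb antibody, 11.4% of TG cells of cluster 3 and 23.3% of cluster 11 lay above the 99th percentile of mature B cells, and 60.1% and 61.5% above that of cluster 1. Most TG cells of clusters 3 and 11 held CD3, Trac and Trbc transcripts, so these clusters are given here by number.

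In WT cluster 3 many cells held a Cd3g UMI without UMIs of its partners. A Cd3g UMI with none of Cd3e, Cd3d and Trac was found in 39.9% (34.3 to 45.6) of its cells, against 0.760% in TG cluster 3, 4.18% in WT cluster 8 and 3.54% in WT mature B cells of cluster 1. After thinning to 1000 UMIs the share in WT cluster 3 was 35.3%. Trbc UMIs without Trac were found in 70.3% of WT cluster 3 cells, and also in 56.1% of WT and 47.1% of TG cluster 8 cells and in 46.9% of WT γδ T cells. Mature B cells of cluster 1 gave 19.7% in WT and 27.1% in TG. The 122 cells with Cd3g alone had a TCRb antibody median of 0.75, and none was called a doublet. NK genes other than Eomes were high, with Ncr1 at 970 CPM, Klrb1c at 1533 CPM, Klre1 at 1430 CPM, Tyrobp at 2690 CPM and Fcer1g at 2882 CPM. Eomes was at 19.3 CPM, against 721 CPM in 12 cells of WT cluster 8 chosen alike, and Cxcr6 at 334 CPM against 0 CPM. The absence of Cd3e, Cd3d and Trac is how the 122 cells were chosen, and Cd247 was at 48.2 CPM in them.

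Cells of other lineages held the members at low levels. In mature B cells of cluster 1, Cd3e was at 67.3 CPM in TG against 32.5 CPM in WT, Trac at 59.0 and 62.5 CPM, and Trbc2 at 117 and 108 CPM. In macrophages Cd3e was at 167 and 75.02 CPM and Trbc2 at 204 and 188 CPM, in monocytes Cd3e at 134 and 155 CPM, and in plasmacytoid dendritic cells at 82.0 and 70.5 CPM. A UMI of a CD3 gene was found in 31.4% of TG and 23.1% of WT cells named neither T nor NK. After thinning to 1000 UMIs these shares were 12.3% and 12.2%.

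Cluster 17 was named mature B cell but held T cell transcripts in both libraries. The complete set was present in 24 of 29 TG cells and 129 of 155 WT cells, Cd3e was at 728 CPM in TG against 609 CPM in WT, and Cd79a, a chain of the B cell receptor complex, was found in each of these cells. Doublet calls fell on 79.3% of the TG and 70.3% of the WT cells. Cluster 17 made the mature B class as a whole look higher in WT (149 CPM of Cd3e) than in TG (103 CPM), the opposite of cluster 1.

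Other genes of the receptor and its signalling were counted in the same way. A list of 59 gene names of CD3 and receptor signalling held 54 that were in the table. Constant genes of the γ chain were listed under both Trgc and Tcrg-C names, and only the latter were in the table. In CD4 T cells 9 of 51 with enough UMIs were past 1.5-fold higher in TG and 4 lower, with a median of 0.14, beside 17.3% and 6.13% of all genes. In CD8αβ T cells 7 of 53 were higher and 2 lower, beside 9.0% and 8.03% of all genes, and in cluster 2, 3 of 49 were higher and 6 lower, beside 7.44% and 10.1%. In NKT cells 8 of 53 were higher and 2 lower, beside 9.86% and 4.37%, and in γδ T cells 4 of 25 were higher and 2 lower, beside 20.3% and 4.15%. The medians in these 4 classes were -0.06, -0.06, 0.09 and 0.12. Cd247, the ζ chain that completes the complex, was within 1.5-fold in all 5, at 186 CPM in TG against 256 CPM in WT CD4 T cells and at 132 and 169 CPM in CD8αβ T cells. The kinases Lck (714 and 753 CPM in CD4 T cells) and Zap70 (162 and 156 CPM) were level.

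Fcer1g, Ubash3a, Cd4 and Dok2 were past 1.5-fold higher in TG in at least 3 classes, which for Ubash3a and Dok2 did not hold without cells with 2 or more B cell or myeloid UMIs. Fcer1g, a signalling chain of Fc receptors that NK and myeloid cells also use, was at 87.6 CPM in TG against 11.8 CPM in WT CD4 T cells, at 290 and 83.8 CPM in CD8αβ T cells and at 152 and 44.7 CPM in NKT cells. Myeloid marker UMIs were also higher in TG in CD4 T cells, at 444 CPM against 151 CPM in WT. Without cells holding 2 or more B cell or myeloid UMIs, Fcer1g was at 55.1 and 11.2 CPM in CD4 T cells and at 237 and 79.1 CPM in CD8αβ T cells. In cluster 2, the class with the highest Fcer1g, it was the lower in TG over all cells, at 1704 CPM against 2229 CPM (log2 ratio -0.39, -0.49 to -0.29). Cd4, the coreceptor whose promoter drives the transgene, was at 816 and 520 CPM in CD4 T cells and at 634 and 162 CPM in NKT cells. In CD8αβ T cells it was at 186 and 92.0 CPM, and in cluster 2 at 113 and 10.9 CPM, from 150 and 6 UMIs. Ubash3a, a negative regulator of receptor signalling, was at 56.1 and 26.8 CPM in NKT cells, and Dok2, an adaptor with a like role, at 157 and 79.0 CPM in CD8αβ T cells. Without those mixed cells Ubash3a was at 37.1 and 26.0 CPM in CD8αβ T cells (0.51 on the log2 scale) and Dok2 at 133 and 122 CPM in γδ T cells (0.12), so that each was past 1.5-fold in 2 classes.

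Across 21 profiles of a cell type in a library with at least 50 cells, the genes most like the CD3 genes, out of 3642, were Thy1 (Pearson r of 0.98), Lat (0.96), Skap1 (0.96), Zap70 (0.95) and Bcl11b (0.95). For the αβ constants they were Skap1 (0.98), Thy1 (0.98), Lat (0.97), Bcl11b (0.97) and Lck (0.97). Among the members themselves the closest pair was Cd3d with Cd3e (0.98) and the least close Cd3e with Trbc1 (0.88). Cd3g was closer to Trbc2 and Trbc1 (both 0.97) than to its neighbour Cd3d (0.94) or to Cd3e (0.92). These profiles share 2 libraries, so the values are a description.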

How the data were processed

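CD45+ cells from mouse liver were captured by BD Rhapsody, in which transcripts with a poly(A) tail and antibody oligonucleotides carry UMIs. Per the methods of the study and the labels, the authors aligned reads to mm10 (GRCm38) with STAR in the BD pipeline, joined the libraries by CCA in Seurat and named cells. The values used are the deposited counts of RNA and antibody UMIs of filtered cells, of which the authors made natural log values of the antibodies before they deposited them. Each of the 584521 values equalled, within 1e-06, ln(1 + count/g), g being the geometric mean of count + 1 over the antibodies of the cell, so a count of 0 gives 0 and no value is negative; they are called centred log ratios here. The filter on cells is not stated. The 83503 deposited counts of the members and Trdc equalled those of the unfiltered library files. Columns with the authors' genotype, cell type and cluster were used as given.

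UMIs were summed by class or cluster and library and divided by the total of all genes (CPM). Intervals are exact Poisson for CPM, conditional binomial for ratios, Clopper-Pearson for shares and Newcombe for differences, at 95%. Genes needed at least 10 UMIs in each profile for a count past 1.5-fold. Pathway genes were named when past it in 1 direction in at least 3 classes, and genes of like pattern were the 5 with the highest Pearson r on log2(CPM + 1), with a mean of at least 50 CPM. Members and lists were chosen with earlier results of these data known. Scrublet (scanpy 1.11.5, expected rate 0.05) called doublets, which were kept and left out in an alternative, and cells were thinned to 1000 UMIs. Other alternatives were TMM (edgeR 4.0.16), other totals, equal weight for cells, other cell sets and other thresholds. The ratio calculation was tested on simulated data. Promoters came from RefSeq and gene models from GENCODE vM21. Python 3.11.15, numpy 2.4.6, pandas 2.3.3, scipy 1.17.1 and R 4.3.3 were used. Cells without a genotype name were left out of comparisons, and sorted cells and receptor repertoires were not analysed here.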

Additional observations from a re-analysis of the deposited data

Results flagged for a closer look

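The deposited library files also hold cells that the cell table gives no genotype name, and the members were present in them above the level of mature B cells. In the TG pool these were 5379 cells with Cd3e at 785 CPM, Cd3d at 364 CPM, Cd3g at 421 CPM, Trac at 757 CPM, Trbc1 at 249.6 CPM and Trbc2 at 1202 CPM. In the WT pool they were 16829 cells with Cd3e at 937 CPM, Cd3d at 652 CPM, Cd3g at 619.8 CPM, Trac at 1352 CPM, Trbc1 at 404 CPM and Trbc2 at 2042 CPM. A Cd3e UMI was found in 63.4% of the former and 76.6% of the latter. Each pool holds 2 genotypes and cells of every lineage, so these levels stand for no genotype and no cell type, and they entered no comparison.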

How the results depend on the processing

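There was 1 library for each genotype, so intervals cover counting error only, and PCR and capture differences between libraries are not in them. No paired analysis was possible because each genotype had 1 library and no test was run. γδ T cells rested on 17 TG cells, and shares of cells with a UMI rise with depth. γδ T cells had no cluster with at least 20 cells in each library, so the alternatives that rest on such clusters gave no value there. The causes of the changes below were not tested, other than where fewer cells, UMIs or genes were by construction counted. The mean of the cluster ratios, the threshold from cluster 1, the antibody values without mixed cells and the values without cluster 17 were added after the data were seen.

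Among values whose interval left out 0, signs turned in these cases. Without cells holding Trdc, cluster 2 gave -0.15 for the summed αβ constants, -0.074 for Trac and -0.12 for Trbc2 (log2 TG over WT), and the CD3 antibody in γδ T cells gave 0.26. The mean of the cluster ratios gave 0.017 for Cd3g and 0.047 for Trbc1 in NKT cells. The CD3 antibody gave -0.011 in cluster 2 with equal weight for each cell and -0.051 in NKT cells with totals without the most counted antibody. The TCRb antibody in γδ T cells gave -0.19 without cells holding 2 or more B cell or myeloid UMIs (mixed cells). Signs of values whose interval held 0 also turned, to -0.050 for Cd3d and -0.046 for Cd3g in CD4 T cells and 0.014 for Cd3d in cluster 2, and in γδ T cells to -0.14 for Cd3e, 0.038 for Cd3d, 0.91 for Trac, -0.43 for Trbc1 and 0.27 for Trbc2 at the most. Members past 1.5-fold changed in 3 classes. Trbc1 in CD8αβ T cells passed the line at -0.59 with TMM factors, -0.63 with totals without ribosomal protein and mitochondrial genes, -0.62 with equal weight for each cell, -0.68 after thinning and -0.72 without mixed cells, and Trac in cluster 2 at 0.59 after thinning. Cd3g in γδ T cells ranged from -2.04 after thinning to -0.55 without mixed cells, where its call was lost, and Cd3e, Cd3d, Trac and Trbc1 there passed the line in value in at least 1 alternative. For Cd3e the alternatives ranged from 0.29 to 0.46 in CD4 T cells, 0.18 to 0.40 in CD8αβ T cells, 0.23 to 0.25 in cluster 2, 0.24 to 0.41 in NKT cells and -0.14 to 0.59 in γδ T cells.

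Summed CD3 genes moved to 0.10 in CD4 and 0.023 in NKT cells with TMM factors (which shifted all genes by -0.12 in CD4 and -0.19 in γδ T cells), to 0.12 in CD4 and -0.11 in CD8αβ T cells with totals without ribosomal protein and mitochondrial genes, to 0.092 in CD8αβ T cells over clusters with at least 20 cells in each library, to 0.052 in CD8αβ and 0.14 in NKT cells as the mean of the cluster ratios, to 0.012 in CD8αβ T cells without mixed cells, to 0.0096 in NKT cells after thinning, and to -0.42 in γδ T cells without Trdc. Summed αβ constants moved to -0.34 in CD4 and -0.27 in NKT cells with TMM, to -0.32 in CD4 and -0.44 in CD8αβ T cells with the other totals, to -0.26 in CD8αβ T cells over the larger clusters, to -0.33 there as the mean of cluster ratios, and in γδ T cells to 0.33 after thinning and -0.56 without Trdc.

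The TCRb antibody ratio moved with equal weight for each cell to -0.47 in CD4, -0.16 in CD8αβ, 0.92 in cluster 2 and 0.30 in NKT cells. With totals without the most counted antibody it moved to -0.45, -0.28, 1.55 and 0.25 in these classes and to 0.79 in γδ T cells. Without Trdc it moved to 1.199 in cluster 2, 0.35 in NKT and 0.17 in γδ T cells, and without mixed cells to -0.17 in CD8αβ T cells. The CD3 antibody ratio moved to -0.36 in CD8αβ T cells and 0.57 in cluster 2 with those totals, to 0.75 in cluster 2 without Trdc and to -0.32 in CD4 T cells without mixed cells.

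Positive shares depended on the threshold. For the CD3 antibody they were, at the 99th percentile, 60.1% in TG and 60.6% in WT CD4, 42.5% and 32.1% in CD8αβ, 12.7% and 4.64% in cluster 2, 24.7% and 3.41% in NKT and 58.8% and 55.2% in γδ T cells. At the 95th percentile the CD3 antibody share was 74.8% in TG and 86.1% in WT CD4, 64.4% and 68.9% in CD8αβ, 31.95% and 28.4% in cluster 2, 45.1% and 30.8% in NKT and 76.5% and 70.3% in γδ T cells. The TCRb share was then 98.3% and 90.3% in CD4, 94.2% and 82.3% in CD8αβ, 78.3% and 11.9% in cluster 2, 90.1% and 45.5% in NKT and 58.8% and 17.7% in γδ T cells. With cluster 1 as the reference the CD3 antibody share was 61.3% in TG and 84.2% in WT CD4, 44.5% and 66.5% in CD8αβ, 13.4% and 25.3% in cluster 2, 26.7% and 26.6% in NKT and 64.7% and 69.8% in γδ T cells, so that WT was the higher in CD4, CD8αβ, cluster 2 and γδ T cells. The TCRb share was 95.8% in TG and 93.1% in WT CD4, 91.7% and 85.0% in CD8αβ, 69.3% and 18.04% in cluster 2, 82.7% and 57.8% in NKT and 52.9% and 20.8% in γδ T cells.

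Shares of cells fell with fewer UMIs. At 2 or more UMIs a CD3 gene was found in 52.6% of WT cluster 3, 13.1% of TG and 5.57% of WT cluster 8 and 96.5% of TG cluster 11 cells. After thinning the shares were 88.6% in TG and 47.4% in WT cluster 3, 13.1% and 10.8% in cluster 8, 90.4% in TG cluster 11, and 12.3% in TG and 12.2% in WT cells named neither T nor NK. A Trac UMI was then found in 52.9% of TG and 28.6% of WT γδ T cells and in 46.6% and 24.3% of Trdc positive T cells. Among WT cells named neither T nor NK the share with a CD3 gene was 18.8% without doublets and 18.5% without cluster 17. Weighting cells with at least 5 Trbc UMIs equally, the Trbc1 share was 19.5% in WT CD8αβ, 15.3% in TG cluster 2 and 21.2% in TG NKT cells. With 10 UMIs over both profiles in place of 10 in each, genes past 1.5-fold lower in TG were 10.3% in CD4, 8.12% in NKT, 21.9% in γδ T cells and 14.9% in NK cluster 8, and those higher were 15.2% in cluster 2.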
